A study of Mus musculus with 6 samples.

Results

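The genes described here are 10 genes of the glucocorticoid and metallothionein response, read by RNA-seq in mouse right atria (RAs) under volume overload (VO) and after sham surgery. They are Mt1, Mt2, Fkbp5, Tsc22d3, Sgk1, Zbtb16, Klf9, Errfi1, Nr3c1 and Txnip. They were chosen by name, as the rows of the expression table that carry these symbols, and make up 10 of the 54093 genes in the table. Among the 12627 genes with a mean of at least 1 FPKM over the 6 libraries, 9 of the 10 were found, since Mt2 had a lower mean. FPKM are fragments scaled to gene length and to a size set for each library. All animals were wild-type C57BL/6 mice, and RA tissue was taken at P21 (postnatal day 21). The VO group (n = 3) had an aortocaval fistula (ACF), an opening made as neonates between the abdominal aorta and the inferior vena cava that sends more blood into the RA, and the sham group (n = 3) had sham surgery. Both groups thus shared neonatal abdominal surgery and anaesthesia, and no unoperated group was analysed here. The RNA came from whole RA tissue, so each value is an average over all its cell types. The labels do not say how many animals gave each library, so the p-values measure the spread between libraries. A library is named by its group and its replicate number, as in sham 1 or VO 3.

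Glucocorticoids are the adrenal stress hormones. They bind the glucocorticoid receptor, encoded by Nr3c1, which is held in the cytoplasm by heat shock proteins, moves to the nucleus once it carries hormone, and switches on genes next to its response elements. Fkbp5, Tsc22d3 (the leucine zipper protein GILZ), Sgk1, Zbtb16, Klf9 and Errfi1 are known as genes that the receptor induces in many tissues, the heart included. Mt1 and Mt2 are small cysteine-rich proteins that bind zinc and copper, and their genes are induced by metals through the factor MTF1 and also by glucocorticoids. Txnip binds and restrains thioredoxin and limits glucose uptake, and its gene follows glucose as well as glucocorticoids.

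The sequences of 3 promoters are given because they hold letter matches to elements through which metals and glucocorticoids are known to act. Mt2 and Mt1 lie side by side on the plus strand of chromosome 8. The windows hold the 250 bases before the start of each gene in RefSeq (GRCm38.p6, plus strand, 5′ to 3′), at chr8:94172368-94172617 for Mt2 and chr8:94178839-94179088 for Mt1. Capitals mark matches to the core of the metal response element, searched as TGCACNC and TGCGCNC on both strands.
Mt2: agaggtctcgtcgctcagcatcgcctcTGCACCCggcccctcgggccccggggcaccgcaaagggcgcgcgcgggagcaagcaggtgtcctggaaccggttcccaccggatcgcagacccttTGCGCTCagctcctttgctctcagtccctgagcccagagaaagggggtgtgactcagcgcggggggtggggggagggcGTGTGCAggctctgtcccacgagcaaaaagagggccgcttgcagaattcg
Mt1: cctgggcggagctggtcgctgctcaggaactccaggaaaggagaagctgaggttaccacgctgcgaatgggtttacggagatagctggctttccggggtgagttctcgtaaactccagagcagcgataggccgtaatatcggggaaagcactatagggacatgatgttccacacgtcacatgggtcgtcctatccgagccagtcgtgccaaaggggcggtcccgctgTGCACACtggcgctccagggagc
The Mt2 window held 3 matches, from 223 to 50 bases before the start, and the Mt1 window held 1, at 23 bases before it, with a further 2 for Mt1 and 1 for Mt2 in the 50 bases after the start. A match was found in 21.4% of 32851 RefSeq promoter windows of the same length, and 3 or more in 1.26%. Of the several RefSeq starts of Sgk1, the window of the one at chr10:21993640-21993889 (plus strand) is shown because a pair of the hexamers bound by the receptor face each other there in the form of a palindrome. Capitals mark that hexamer, AGAACA, on either strand, and the core of the full glucocorticoid response element, ACANNNTGT, where it joins them.
Sgk1: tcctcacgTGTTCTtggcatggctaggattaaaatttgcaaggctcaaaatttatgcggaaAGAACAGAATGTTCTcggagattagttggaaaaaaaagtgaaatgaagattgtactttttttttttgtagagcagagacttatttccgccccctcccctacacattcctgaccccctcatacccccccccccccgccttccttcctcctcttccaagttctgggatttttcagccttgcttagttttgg
This window held 3 hexamers and 1 core, which overlapped the palindromic pair. The hexamer was found in 16.1% of all windows and the core in 5.84%. RefSeq entries were matched for 8 of the 10 genes, with 16 windows in all. Outside Sgk1, the hexamer was found in 1 window of Tsc22d3, and the core in the windows of Mt1 and Txnip. A match is a run of letters and was not tested as a binding site.

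The libraries held 15963082 to 17237903 fragments on genes, recovered from the FPKM values, and mitochondrially encoded genes took 13.8% to 16.3% of them. Behind each value of the 9 tested genes stood at least 455 fragments (Fkbp5 in VO 1) and at most 19379 (Txnip in VO 1), whereas Mt2 had 4 to 10. Each group held 2 libraries with Xist and 1 with the Y-linked gene Ddx3y. VO 1 and sham 1 stood apart from the rest. VO 1 was the lowest of the 6 libraries for 32.6% of the tested genes and the highest for 25.4%, and sham 1 was the lowest for 23.1% and the highest for 29.0%. Among the 9 tested genes described here, 6 were lowest in VO 1 and 4 highest in sham 1. Fold changes are given without VO 1 as well wherever that moves them by over 1.5 times or turns their sign.

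**Figure D1:**
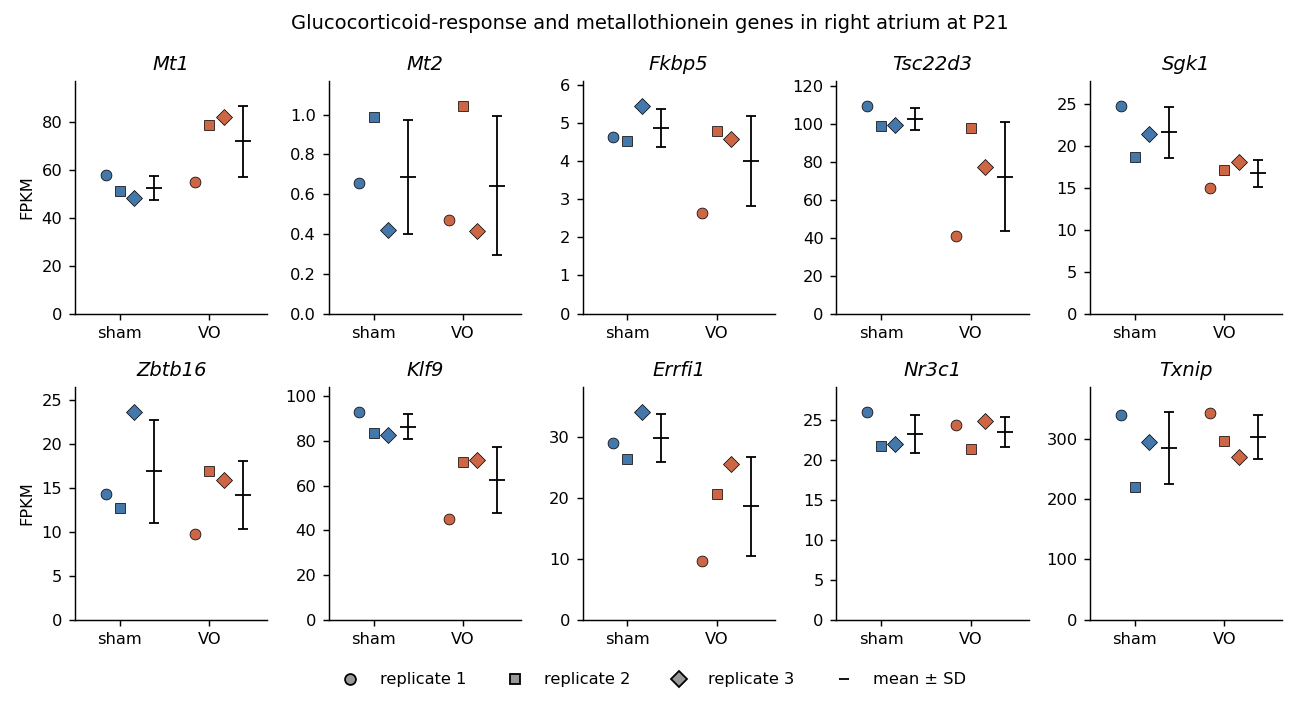
FPKM of the 10 genes in each library (y axes, linear from 0), with sham in blue, VO in orange, marker shapes for replicates 1 to 3, and bars for the mean ± SD of 3 libraries. VO 1 (orange circle) is the lowest of the 6 points for Fkbp5, Tsc22d3, Sgk1, Zbtb16, Klf9 and Errfi1, whereas for Mt1 the points of VO 2 and VO 3 lie above every sham point.

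All 6 glucocorticoid-induced genes had a lower mean in VO than in sham, Mt1 had a higher one, and Nr3c1 and Txnip were at about the same level. None of these differences passed the adjusted test, for which limma's moderated test was run on log2(FPKM + 0.1) with Benjamini-Hochberg adjustment over the 12627 genes. The adjusted p-values of the 9 tested genes lay between 0.41 and 0.95, and 0.00792% of all tested genes (1 gene) passed. By the unadjusted p under 0.05, Sgk1 and Klf9 were lower in VO, which is 2 of 9 genes against 8.08% of all tested genes, and Mt1 was higher, which is 1 of 9 against 3.89%. The 3 VO values lay below all 3 sham values for Tsc22d3, Sgk1, Klf9 and Errfi1, or 4 of 9 genes against 12.9% of all tested genes, and above them for 0 of 9 against 8.25%. An exact permutation test of 3 libraries against 3 cannot give a two-sided p below 0.1. The median log2 fold change of the 9 genes was -0.32, or -0.06 without VO 1, and that of all tested genes was -0.01. With the values scaled as TPM (transcripts as a share of the library total), which set the median of all tested genes at 0.13, all 6 glucocorticoid-induced genes stayed lower in VO and Mt1 higher, but the count of lower genes at an unadjusted p under 0.05 was then 0. On that scale 486 of the 12627 tested genes were lower at that p and 1085 higher.

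**Figure D2:**
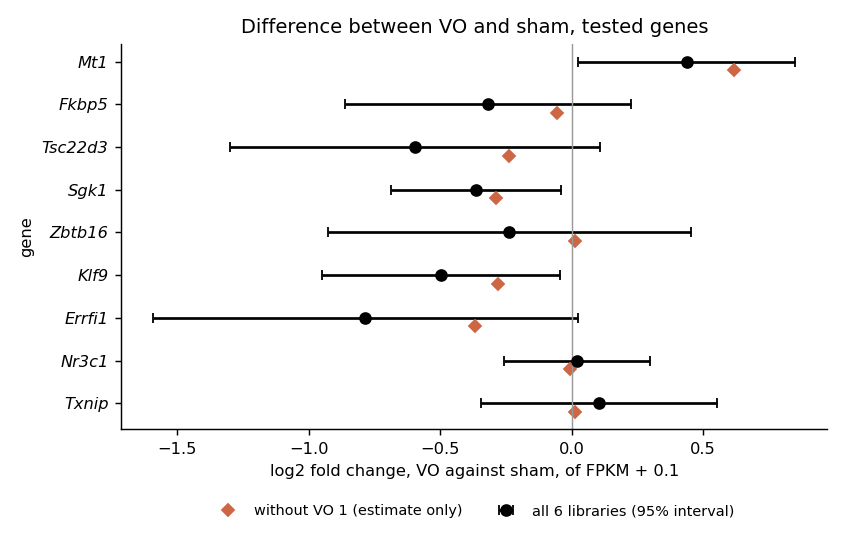
Log2 fold change of VO against sham for the 9 tested genes (x axis, on log2(FPKM + 0.1)), with 95% confidence intervals from limma with all 6 libraries and, as the second marker, the value without VO 1. Errfi1 lies farthest to the left at -0.78 and moves to -0.37 without VO 1, whereas Mt1 lies to the right at 0.44 and moves to 0.62.

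Nr3c1, the gene of the receptor itself, had 26.0, 21.8 and 22.0 FPKM in the sham libraries 1 to 3, and 24.4, 21.4 and 25.0 FPKM in the VO libraries 1 to 3. The groups overlapped and had nearly the same mean, 23.3 ± 2.38 FPKM (SD, n = 3) in sham and 23.6 ± 1.89 in VO. The log2 fold change was 0.02 with a standard error of 0.12 (limma, adjusted p = 0.952). The 95% confidence interval, from -0.26 to 0.30, gives the differences that are compatible with these libraries at that level. Its spread within groups was small, since 24.4% of the tested genes varied less. Without VO 1 the log2 fold change was -0.01. VO 1, where the induced genes were lowest, had the second highest Nr3c1 value of the VO group.

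Tsc22d3 encodes GILZ, a protein that carries part of the anti-inflammatory action of glucocorticoids, and lies on the minus strand of chromosome X (140539528 to 140600659, GRCm38). It was read at 109.7, 99.0 and 99.8 FPKM in sham 1, sham 2 and sham 3, and at 41.1, 97.9 and 77.7 FPKM in VO 1, VO 2 and VO 3. All 3 VO values were below the sham values, but VO 2 by only about 1 FPKM, and VO 1 was far below the other libraries. The means were 102.8 ± 5.95 FPKM (SD, n = 3) in sham and 72.2 ± 28.8 in VO, a log2 fold change of -0.60 with a standard error of 0.30 (limma, adjusted p = 0.435). Without VO 1 the log2 fold change was -0.24, and the values of VO 2 and VO 3 still lay below those of sham.

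Klf9, a Krüppel-like transcription factor and one of the most regular early targets of the receptor, lies on the plus strand of chromosome 19 (23141226 to 23166911). Its levels were 92.9, 83.5 and 82.8 FPKM in sham 1, sham 2 and sham 3 and 45.3, 70.5 and 71.7 FPKM in VO 1, VO 2 and VO 3. The groups did not overlap, VO 1 was again the lowest, and VO 2 and VO 3 lay close together below sham. From 86.4 ± 5.66 FPKM (SD, n = 3) in sham the mean was 62.5 ± 14.9 in VO, which was 0.71 times the sham level on the fitted scale (log2 fold change -0.50, standard error 0.19, limma, unadjusted p under 0.05, adjusted p = 0.41). Klf9 was the only glucocorticoid-induced gene of the 6 whose unadjusted p stayed under 0.05 without VO 1, at a log2 fold change of -0.28 (adjusted p = 0.655).

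Sgk1 encodes a kinase that raises sodium transport and cell survival, and lies on the plus strand of chromosome 10 (21882184 to 21999903). It was read at 24.8, 18.7 and 21.4 FPKM in sham and at 15.0, 17.2 and 18.03 FPKM in VO, in the order of the replicates. The highest VO value, that of VO 3, was just below the lowest sham value, that of sham 2. The means were 21.6 ± 3.05 FPKM (SD, n = 3) and 16.7 ± 1.57, with a log2 fold change of -0.36, a standard error of 0.14 and a 95% confidence interval from -0.69 to -0.04 (limma, unadjusted p under 0.05, adjusted p = 0.41). Its 3 VO values lay close together, and the log2 fold change without VO 1 was -0.29 (adjusted p = 0.697).

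Errfi1, an inhibitor of the EGF receptor family also known as MIG6, lies on the plus strand of chromosome 4 (150853919 to 150868892). Its levels were 29.1, 26.3 and 34.1 FPKM in sham 1, sham 2 and sham 3, and 9.59, 20.7 and 25.5 FPKM in VO 1, VO 2 and VO 3. The groups did not overlap, although VO 3 and sham 2 were within 1 FPKM of each other. The means of 29.8 ± 3.91 FPKM (SD, n = 3) and 18.6 ± 8.18 gave the lowest fold change of the 9 genes, -0.78 on the log2 scale with a standard error of 0.34 (limma, adjusted p = 0.414). It also varied most within groups, since 91.4% of the tested genes had a smaller residual SD, and without VO 1 the log2 fold change was -0.37 (adjusted p = 0.667).

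Fkbp5 and Zbtb16 overlapped between the groups. Fkbp5, a chaperone partner of the receptor that dampens its response and is a common readout of hormone exposure, was read at 4.63, 4.53 and 5.44 FPKM in sham and at 2.65, 4.77 and 4.57 FPKM in VO. Only VO 1 was low, and VO 2 and VO 3 lay within the sham range. The log2 fold change was -0.32 with a standard error of 0.23 (limma, adjusted p = 0.538), and without VO 1 it was -0.06. Zbtb16, the transcription factor PLZF, was read at 14.4, 12.7 and 23.7 FPKM in sham and at 9.73, 17.0 and 15.9 FPKM in VO. Its highest value was that of sham 3 and its lowest that of VO 1. Its log2 fold change of -0.24 had a standard error of 0.29 (limma, adjusted p = 0.71), and it was 0.01 without VO 1.

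The 6 glucocorticoid-induced genes were low together in VO 1 but were not ordered alike in the other libraries. In sham 1, Tsc22d3, Sgk1 and Klf9 were above the mean of sham and Fkbp5, Zbtb16 and Errfi1 below it. In sham 3 it was the other way round. How far the correlations below rest on VO 1 was not tested. Over the 15 pairs of genes, Pearson's r across the 6 libraries, on log2 values, ran from 0.51 to 0.96 with a median of 0.87, and with the group means removed from 0.46 to 0.96 with a median of 0.80. These values are descriptions over libraries that all genes share, and VO 1 is the lowest point of every pair. No r is given without VO 1, since that leaves 5 libraries. Relative to the mean of sham on the log2 scale, VO 1 was at -1.62 for Errfi1, -1.32 for Tsc22d3, -0.93 for Klf9, -0.85 for Fkbp5, -0.74 for Zbtb16 and -0.52 for Sgk1. VO 2 and VO 3 were much nearer to sham, at medians of -0.18 and -0.23 over the 6 genes, against -0.89 for VO 1. The median log2 fold change of the 6 genes was -0.43 with all libraries and -0.26 without VO 1, where 5 of the 6 remained below 0. The 3 genes most like Fkbp5 among all tested genes were Ssbp3 (r = 0.996), Myrip (r = 0.992) and Csrnp1 (r = 0.990) over the 6 libraries, and 318 genes, or 2.52% of those tested, had an r over 0.9 with it.

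**Figure D3:**
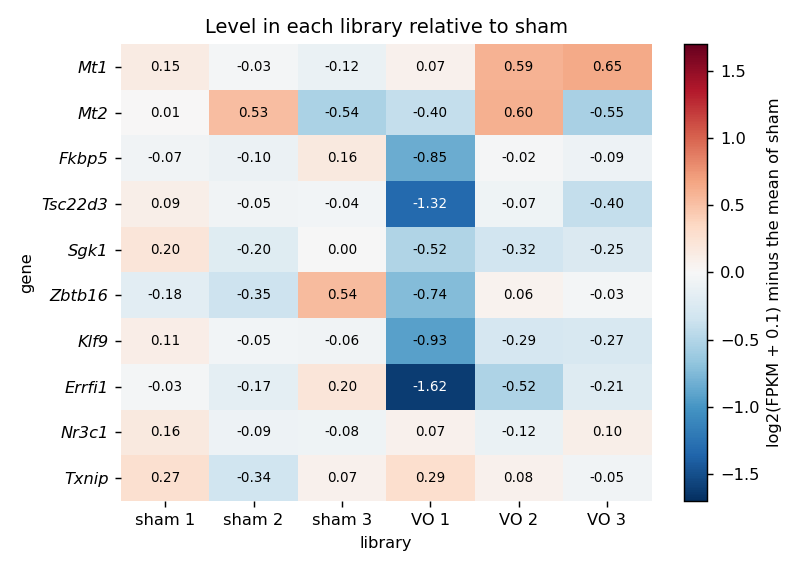
Level of each of the 10 genes in each library (columns) as log2(FPKM + 0.1) minus the mean of the sham libraries, in colour and as numbers. The VO 1 column is the one with low values for the 6 glucocorticoid-induced genes, from -0.52 for Sgk1 to -1.62 for Errfi1, whereas Nr3c1, Txnip and Mt1 are between 0.07 and 0.29 there.

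VO 1 also stood apart in the markers of cell types, and the part of this in its low values was not tested. The summed level of 8 atrial cardiomyocyte markers, led by Myl7, was 14912 to 20806 FPKM in sham and 7258 to 14115 in VO, with VO 1 the lowest, so that the label of the tissue was borne out by its markers in every library. The 10 macrophage markers, led by Lyz2, summed to 271 to 374 FPKM in sham and 310.2 to 957 in VO, and the 10 fibroblast markers, led by Col3a1, to 1051 to 1077 FPKM in sham and 1076 to 1490 in VO, with VO 1 highest in both. The 6 neutrophil markers, led by S100a9, summed to 0.195 to 10.1 FPKM in sham and 1.31 to 60.4 in VO, and the 9 lymphocyte markers, led by Ighm, to 5.59 to 8.62 and 6.15 to 42.3, again with VO 1 highest. Ly6g, Retnlg, Mpo and Elane of the neutrophil list and Cd3e of the lymphocyte list were at 0 in at least 1 library. The 7 endothelial markers, led by Pecam1, were nearly even, at 221 to 232 FPKM in sham and 231 to 243 in VO. In whole tissue, fewer cells of a type and less RNA per cell cannot be told apart.

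The other marker lists are given by their summed levels. The 6 genes listed for smooth muscle, led by Des, summed to 442 to 523 FPKM in sham and 264 to 390.5 in VO. The part of cardiomyocytes in this sum, and in the next one led by Ckm, was not tested. Skeletal muscle markers, led by Ckm, were at 145 to 201 FPKM in sham and 57.9 to 102 in VO, with Myh1 at 0 in every library and Myh4 in some, and ventricular markers, led by Myl3, at 134 to 319 and 99.1 to 151, with Irx4 at 0 in some. Red cell markers, led by Hbb-bs, were at 1198 to 6972 FPKM in sham and 695 to 8580 in VO, the last in VO 1. Adipocyte markers, led by Fabp4, were at 38.7 to 54.6 FPKM in sham and 42.6 to 587 in VO, the last in VO 3, and Adipoq, Plin1, Cidec, Ucp1, Lep and Retn were each at 0 in at least 1 library. Markers of Schwann cells and nerve, led by Dbh and with Th at 0 in some libraries, were at 13.5 to 14.4 FPKM in sham and 8.73 to 42.1 in VO, and mesothelial markers, led by Upk3b, at 28.3 to 89.4 and 33.1 to 83.6.

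Mt1 was the member with a higher level in VO. It was read at 57.9, 51.3 and 48.3 FPKM in sham 1, sham 2 and sham 3, and at 55.1, 79.0 and 82.2 FPKM in VO 1, VO 2 and VO 3. VO 2 and VO 3 were above all sham libraries, while VO 1 lay between sham 1 and sham 2. The means were 52.5 ± 4.91 FPKM (SD, n = 3) in sham and 72.1 ± 14.8 in VO, a fitted ratio of 1.35 (log2 fold change 0.44, standard error 0.18, limma, unadjusted p under 0.05, adjusted p = 0.411). Without VO 1 the groups did not overlap, and the log2 fold change was 0.62 (adjusted p = 0.364). Mt1 and the glucocorticoid-induced genes thus had means on opposite sides of sham, and Pearson's r of Mt1 with the 6 genes was between -0.28 (Sgk1) and 0.10 (Fkbp5) over the 6 libraries. With the group means removed, r was 0.44 with Zbtb16, 0.72 with Sgk1, 0.79 with Fkbp5, 0.85 with Errfi1, 0.90 with Tsc22d3 and 0.98 with Klf9, as a description of these libraries. VO 1 was the lowest VO library for Mt1 as for each of the 6 genes. Relative to the mean of sham on the log2 scale, Mt1 was at 0.07 there and at 0.59 and 0.65 in VO 2 and VO 3. How far these r values rest on VO 1 was not tested.

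Mt1 lies at 94179082 to 94180327 on chromosome 8. Its length in the deposited values, 1246 bases, is the whole span of the gene, introns included, whereas its principal transcript has 549 bases. Per length of that transcript its level was 119 ± 11.1 in sham and 164 ± 33.6 in VO on the FPKM scale (SD, n = 3). The difference between the groups is not touched by this, since the same length divides every library.

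Mt2, usually read together with Mt1, was counted close to 0 in every library. Its levels were 0.656, 0.987 and 0.418 FPKM in sham and 0.469, 1.04 and 0.414 FPKM in VO, from 6, 10 and 4 fragments in sham and 5, 10 and 4 in VO. The groups overlapped, the mean was below the limit of 1 FPKM, and no test was made. Summed over the 6 libraries, Mt1 had 7740 fragments and Mt2 39, a ratio of the counted fragments of 198, although Mt2 ends 5513 bases before Mt1 starts. The other genes of the cluster, Mt3 and Mt4, were at 2.65 to 6.57 FPKM and at 0 in all libraries.

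The annotation places a second gene over Mt2. Mt2 occupies 94172664 to 94173568 on the plus strand of chromosome 8, and Gm45774, an antisense gene with 1 exon, occupies 94170748 to 94173412 on the minus strand. It covers 432 of the 588 exon bases of Mt2, or 73.5%, and leaves 156 free. Gm45774 itself had 0 fragments in 4 libraries and 4 fragments in each of VO 2 and VO 3. Whether the counting used the strand of the reads is not given in the sources used here, and without it reads of a gene and of its antisense partner cannot be told apart. By default featureCounts leaves a read that falls in more than 1 gene uncounted, so the counted fragments may not give the level of Mt2 or its ratio to Mt1. The part of the overlap in the low value was not tested. A smaller overlap was found for Txnip, where the antisense gene Gm15441, with 4 to 12 fragments a library, covers 19.4% of the exon bases. Exons of the other 8 genes were not overlapped. The genes whose log2 values went most with those of Mt2 over the 6 libraries were Tepsin (r = 0.969), Sfswap (r = 0.969) and Ppp2r3d (r = 0.952), on the 4 to 10 fragments of Mt2.

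**Figure D4:**
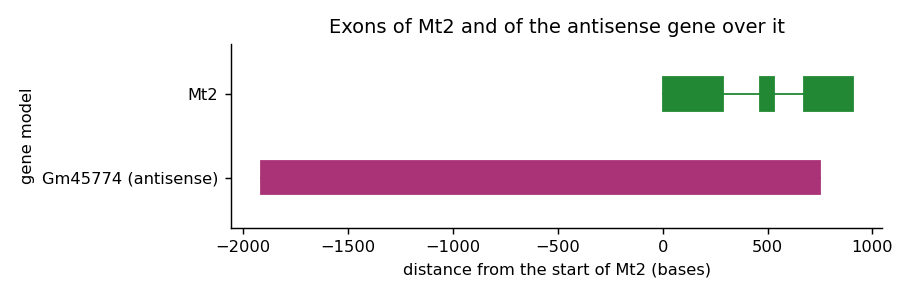
Exons of Mt2 (green boxes, introns as a line) and of the antisense gene Gm45774 (purple), by distance from the start of Mt2 in bases on the x axis. The antisense exon covers the first and second exons of Mt2 and part of the third, 432 of 588 exon bases.

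Txnip had the highest level of the 10 genes and lies on the plus strand of chromosome 3 (96557957 to 96561883). It was read at 338, 220.4 and 293.5 FPKM in sham and at 342, 296 and 269 FPKM in VO. The groups overlapped, and sham 2 was the lowest library. The means were 284 ± 59.6 FPKM (SD, n = 3) and 302 ± 36.8, with a log2 fold change of 0.10, a standard error of 0.19 and a 95% confidence interval from -0.34 to 0.55 (limma, adjusted p = 0.806). Without VO 1 the log2 fold change was 0.01.

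Other genes of the same pathways are given from lists of their known members. The lists were written with earlier results of these data known. A share of a list above that of all tested genes is therefore no independent support. Of 40 further genes known to be induced by glucocorticoids, 36 were tested, of which 10 were higher and 26 lower in VO, and 0 passed the adjusted test. By the unadjusted p, 10 were lower (27.8% of the list, against 8.08% of all tested genes) and 5 higher (13.9%, against 3.89%), and the groups did not overlap for 12 lower and 5 higher genes, against 12.9% and 8.25% of all tested genes. Among the lower genes were Cebpd, Nfkbia, Ddit4, Zfp36, Klf15, Tgm2, Sesn1, Irs2 and Gadd45g. Ddit4, an inhibitor of mTORC1 signalling, was at 44.8, 37.0 and 30.2 FPKM in sham and 9.45, 26.2 and 22.4 FPKM in VO, with no overlap and a log2 fold change of -1.05 (limma, adjusted p = 0.406) that was -0.60 without VO 1. Klf15, a regulator of amino acid and lipid use, was nearly even in sham at 34.1, 33.1 and 33.8 FPKM and was at 10.4, 24.5 and 23.3 FPKM in VO, a log2 fold change of -0.89 (adjusted p = 0.406) that was -0.50 without VO 1. Nfkbia, the inhibitor of NF-κB, was at 65.5, 54.5 and 47.8 FPKM in sham and 35.5, 45.9 and 42.1 FPKM in VO, a log2 fold change of -0.44 (adjusted p = 0.406). Per1 and Dusp1, a pair of other well-known targets, overlapped between the groups, with log2 fold changes of -0.29 and -0.27 that were 0.06 and -0.06 without VO 1.

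The higher genes of this list were Pdk4, Angptl4, Zfp36l2, Foxo1 and Bcl6. Pdk4, the kinase that turns pyruvate away from oxidation, had the highest level of the list, at 139.5, 77.3 and 119 FPKM in sham and 147, 193 and 233 FPKM in VO (log2 fold change 0.79, limma adjusted p = 0.404), and Glul, the next by level, overlapped (log2 fold change 0.12, or 0.45 without VO 1). Angptl4, an inhibitor of lipoprotein lipase, was at 4.97, 1.04 and 1.59 FPKM in sham and 16.9, 8.83 and 12.2 FPKM in VO (log2 fold change 2.53, adjusted p = 0.325). All 3 VO values of both genes were above those of sham. The median log2 fold change of the 36 genes was -0.28 with all libraries and -0.04 without VO 1, where 21 were lower and 15 higher. Of these, 9 of the lower and 4 of the higher ones had an unadjusted p under 0.05. The 9 lower genes were 25.0% of the list, against 5.02% of all tested genes. For the 4 higher of 36, the share of all tested genes was 2.48%. VO 1 was the lowest library for 22 of the 36 genes (61.1%, against 32.6% of all tested genes). With TPM scaling 16 of the 36 were higher and 20 lower, 6 and 7 of them at an unadjusted p under 0.05, and the median was -0.14. On that scale 1085 of the 12627 tested genes were higher and 486 lower at that p. Relative to the median of all genes, the median of the list was -0.27 with FPKM as given, -0.27 with TPM and -0.18 with quantile normalization.

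The list of the receptor's chaperones, cofactors, relatives and steroid enzymes had 25 tested genes, of which 10 were higher and 15 lower. Their median log2 fold change was -0.08, and 0.06 with TPM scaling, with 15 higher and 10 lower. The unadjusted p was under 0.05 for 0 higher and 5 lower genes, 0 passed the adjusted test, and the groups did not overlap for 1 higher and 6 lower genes. The lower calls were 20% of the list, against 8.08% of all tested genes, of which 12.9% were lower and 8.25% higher without overlap. The 5 were Fkbp4, Stip1 and Ppp5c, which are co-chaperones of the receptor complex, and Tsc22d1 and Tsc22d4, relatives of Tsc22d3. Fkbp4, which takes the place of Fkbp5 in the complex once hormone is bound and helps the receptor reach the nucleus, was at 94.5, 73.7 and 69.4 FPKM in sham and 40.2, 63.8 and 58.1 FPKM in VO (log2 fold change -0.56, limma adjusted p = 0.408, and -0.37 without VO 1). Hspa8 and Hsp90ab1, the chaperones with the highest levels of the list, had log2 fold changes of -0.29 and -0.08 (-0.26 and -0.05 without VO 1). Nr3c2, the mineralocorticoid receptor, was at 3.22 to 5.52 FPKM and overlapped, as did Hsd11b1, the enzyme that regenerates active glucocorticoid, at 0.953 to 1.34 FPKM. Without VO 1 the unadjusted p was under 0.05 for 2 lower genes of the list (8%, against 5.02% of all tested genes).

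The zinc and copper genes, which share their metals with Mt1 and Mt2, were even. Of 24 tested genes 12 were higher and 12 lower in VO, with a median of 0.00 (0.14 with TPM scaling, where 18 were higher), and 0 had an adjusted or an unadjusted p under 0.05. The groups did not overlap for 3 higher and 2 lower genes, against 8.25% and 12.9% of all tested genes. Mtf1, the metal-sensing factor, had a log2 fold change of 0.03 (limma, adjusted p = 0.933), or -0.03 without VO 1. Slc30a1, the zinc exporter that MTF1 is known to induce together with Mt1, was at 5.20, 5.30 and 5.59 FPKM in sham and 7.45, 5.46 and 7.05 FPKM in VO (log2 fold change 0.30, adjusted p = 0.423), with VO 2 inside the sham range. The highest levels were those of Atox1 and Slc39a1, with log2 fold changes of -0.19 and 0.07.

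In the thioredoxin system, to which Txnip belongs, 4 of 15 tested genes were higher and 11 lower, with a median log2 fold change of -0.13 (-0.01 without VO 1, 0.01 with TPM scaling). The unadjusted p was under 0.05 for 2 higher and 0 lower genes, 0 passed the adjusted test, and 1 higher and 2 lower genes did not overlap. By the unadjusted p 13.3% of the list were higher, against 3.89% of all tested genes, and the counts without overlap are near the 8.25% higher and 12.9% lower of all tested genes. Both higher genes were arrestin relatives of Txnip: Arrdc1 at 1.90, 1.80 and 2.76 FPKM in sham and 4.41, 2.81 and 2.79 FPKM in VO, and Arrdc4 at 5.49, 4.62 and 4.87 FPKM in sham and 9.09, 7.44 and 5.19 FPKM in VO. Their log2 fold changes were 0.60 and 0.49 (limma, adjusted p = 0.413 and 0.414), and without VO 1 they were 0.39 and 0.31 and neither had an unadjusted p under 0.05. Arrdc2, another relative, had a log2 fold change of -0.68 (adjusted p = 0.466), or -0.19 without VO 1, with 2.88 FPKM in VO 1 and 7.47 to 9.48 FPKM in the other libraries. Prdx3 and Prdx1, peroxiredoxins with the highest levels of the list, had log2 fold changes of -0.22 and -0.06, or -0.05 and -0.01 without VO 1.

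The fasting, FOXO and PPAR-alpha list shares 7 genes with the glucocorticoid list, Pdk4, Angptl4, Klf15, Irs2, Sesn1, Foxo1 and Foxo3. Of its 25 tested genes 15 were higher and 10 lower in VO, and their median was 0.23 on the log2 scale (0.21 without VO 1). The unadjusted p was under 0.05 for 9 higher and 4 lower genes, 0 passed the adjusted test, and 8 higher and 4 lower genes did not overlap. Of the list, 36% were thus higher and 16% lower by the unadjusted p, against 3.89% and 8.08% of all tested genes, and the shares without overlap over all tested genes were 8.25% higher and 12.9% lower. This list too was written with earlier results known, and the part of that choice in these shares was not tested. The higher genes were Pdk4, Angptl4, Foxo1, Ucp3, Cpt1a, Acot1, Acot2, Plin2 and Slc25a34, and the lower ones were Trim63, Klf15, Irs2 and Sesn1. Ucp3, an inner membrane carrier, was at 4.02, 1.499 and 1.82 FPKM in sham and 8.47, 10.1 and 7.16 FPKM in VO (log2 fold change 1.88, limma adjusted p = 0.283). Cpt1a, which brings long-chain fatty acids into mitochondria, was at 16.4, 16.5 and 15.0 FPKM in sham and 35.1, 27.1 and 22.7 FPKM in VO (log2 fold change 0.80, adjusted p = 0.325). The groups did not overlap for either. Acadm, which has the second highest level of the list after Pdk4, overlapped with a log2 fold change of -0.15, or 0.06 without VO 1. Plin2, a lipid droplet protein, was at 9.88, 9.46 and 9.32 FPKM in sham and 16.7, 11.9 and 20.1 FPKM in VO. The summed adipocyte markers were high in VO 3 alone, and their part in its value there was not tested.

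Genes of the circadian clock were read because glucocorticoids follow the time of day. Of 18 tested genes 7 were higher and 11 lower, with a median log2 fold change of -0.06 (0.00 without VO 1, 0.08 with TPM scaling), and 0 had an adjusted or unadjusted p under 0.05 or groups without overlap. Nr1d2 and Tef, with the highest levels, had log2 fold changes of -0.15 and -0.19, or -0.03 and -0.08 without VO 1. Of 18 immediate early genes, 3 were higher and 15 lower, with a median of -0.25 (-0.15 without VO 1). The unadjusted p was under 0.05 for 0 higher and 4 lower genes (22.2% of the list, against 8.08% of all tested genes), and 0 passed the adjusted test. The 4 were Jund, Nr4a1, Btg2 and Zfp36, whose groups did not overlap. Without overlap, 12.9% of all tested genes were lower and 8.25% higher. With TPM scaling the unadjusted p was under 0.05 for 0 of the 18, while 486 of the 12627 tested genes were lower at that p and 1085 higher. Nr4a1, a nuclear receptor induced within minutes, was at 6.91, 8.93 and 16.4 FPKM in sham and 4.95, 4.79 and 6.83 FPKM in VO (log2 fold change -0.87, limma adjusted p = 0.408). Klf2 and Ier3, with the highest levels of that list, overlapped, at log2 fold changes of -0.35 and -0.12, or 0.00 and -0.24 without VO 1.

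Glucocorticoids raise or restrain acute phase and inflammatory genes. The split and the median of this list depended on VO 1, the library that was highest for 10 of the 16 tested. With all libraries 15 had a higher mean in VO and 1 a lower one, with a median log2 fold change of 0.55, and without VO 1 the split was 10 and 6 and the median 0.14. The unadjusted p was under 0.05 for Serpina3n and Il1b, which were higher, and Hamp, which was lower, with no overlap between groups in these 3, and 0 passed the adjusted test. That is 2 of 16 higher against 3.89% of all tested genes and 1 of 16 lower against 8.08%. Without overlap, 8.25% of all tested genes were higher and 12.9% lower. With TPM scaling 5 were higher at that p and 1 lower, against 1085 and 486 of the 12627 tested genes. Without VO 1 the counts at that p were 2 higher and 1 lower, against 2.48% and 5.02% of all tested genes. The log2 fold changes of Serpina3n, Il1b and Hamp were then 0.80, 1.81 and -0.59. Serpina3n, a protease inhibitor, was at 2.21, 2.64 and 2.35 FPKM in sham and 7.72, 4.19 and 4.30 FPKM in VO (log2 fold change 1.08, limma adjusted p = 0.327). Il1b, an inflammatory cytokine, was at 0.213 to 0.303 FPKM in sham and at 4.62, 0.836 and 1.56 FPKM in VO 1, VO 2 and VO 3. Its sham mean of 0.258 FPKM was under the limit of 1 FPKM, so Il1b entered the test only through its VO values. The 2 of 16 higher genes include it, so its call is no independent support. The fit without VO 1 kept the same filter over all 6 libraries. Hamp, which encodes the iron hormone hepcidin, had the highest level of the list, at 388, 269 and 254 FPKM in sham and 146, 194 and 203 FPKM in VO (log2 fold change -0.73, adjusted p = 0.4), and C3, the next by level, overlapped, with 175 FPKM in VO 1 and 9.94 to 51.4 in the other libraries (log2 fold change 1.54, or 0.68 without VO 1). VO 1 was also the library with the highest macrophage and neutrophil markers, and their part in these values was not tested.

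**Figure D5:**
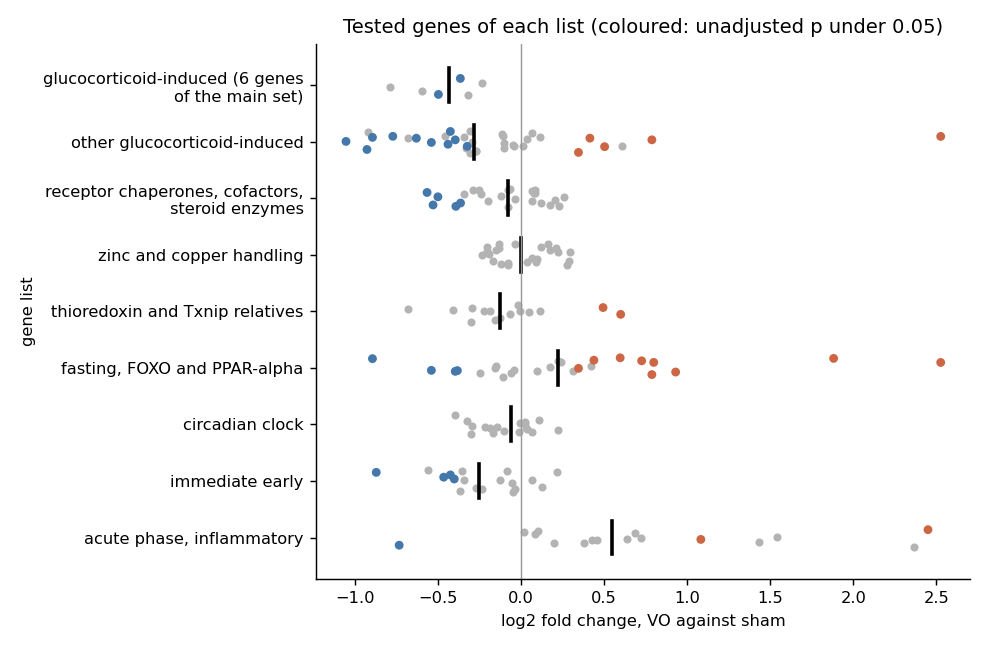
Log2 fold change of VO against sham (x axis) of every tested gene of each list, a point per gene, with the median of the list as a bar and an unadjusted p under 0.05 in colour (orange higher, blue lower). The median is -0.43 for the 6 glucocorticoid-induced genes and -0.28 for the 36 further ones, 0.00 for zinc and copper handling, 0.23 for the fasting list and 0.55 for the acute phase list.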

How the data were processed

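RNA-seq of right atria at P21, with 3 sham and 3 VO libraries, was used as given in 1 table of FPKM values. Libraries were made with an NEBNext Ultra kit. The authors aligned the reads with HISAT2 2.0.5, counted them per gene with featureCounts 1.5.0-p3 (versions from the submitters' processing notes, which name GRCm38), and deposited FPKM, computed from the counts and the gene length. The strand setting of the counting is not given in the sources used here. The table held 54093 complete genes and 1 incomplete line, which was left out. FPKM times gene length gave whole fragments for 100% of the values (tolerance of 0.01 fragment). Median-of-ratios factors were all 1.00, which left the values as given. The library size that FPKM implies was not the count of fragments on genes. It was 1.56e+07 against 16494342 in sham 1 and 1.81e+07 against 16852482 in VO 1. In VO 2 and VO 3 it was also above that count, in sham 3 below it and in sham 2 about equal. The deposited values thus already carried a scaling between libraries, which TPM replaces. Its part in the shifts with TPM was not tested. Coordinates were the same as in the GENCODE M21 annotation for 98.4% of 54039 shared genes and for 8 of the 10 genes described. Klf9 and Nr3c1 differed.

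Genes averaging 1 FPKM or more (12627) were fitted as log2(FPKM + 0.1) with limma 3.58.1 in R 4.3.3 (lmFit, eBayes with trend), VO against sham with no covariate, two-sided, with Benjamini-Hochberg adjustment and a threshold of 0.05. A fold change on this scale understates that of low genes. The fit was checked on simulated data with planted changes larger than those of the tested genes described here, and with no library set apart. The check therefore does not tell how often changes of the size found here would be detected. Python 3.11.15 and matplotlib 3.10.9 served for summaries and figures. Named were all 10 genes, the genes of each list with an unadjusted p under 0.05, the 2 of each list with the highest mean FPKM, the 3 most correlated with Fkbp5 and with Mt2, and the leading and absent markers. A gene that this rule would name is not reported here. Some list genes outside this rule (Per1, Dusp1, Nr3c2, Hsd11b1, Mtf1, Slc30a1, Arrdc2, Mt3 and Mt4) were added for their known roles after their values were seen. The genes and the lists were chosen with earlier results of these data known. Alternatives were other pseudocounts, filters and scalings, eBayes without trend or with robust variance, voom on the recovered fragments, a replicate block, and each library left out in turn. Median of ratios over the tested genes alone was chosen after seeing the data.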

Additional observations from a re-analysis of the deposited data

How the results depend on the processing

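Of the values under the alternatives, 226 kept their direction and side of the threshold or stayed within the spread, 18 moved and 7 changed sign. The 226 do not measure robustness. FPKM as given repeats the main fit, and the filters and eBayes settings leave each fold change as it was. The median of the 9 genes, -0.32, counted as within the spread if it moved by less than 0.38. Its value of -0.06 without VO 1 is therefore among the 226. None of the 9 tested genes passed the adjusted test under any alternative tried, where their adjusted p ran from 0.27 to 0.992, and over all tested genes 0 to 3 passed. The sign changed for 3 genes with values near 0, when a single library was left out: Zbtb16 ran from -0.42 to 0.03, positive at 0.0285 without sham 3 and at 0.0124 without VO 1, Nr3c1 from -0.03 to 0.10 (-0.029339 without sham 2, -0.021794 without sham 3, -0.0065919 without VO 1 and -0.022464 without VO 3), and Txnip from -0.07 to 0.24 (-0.072369 without sham 2). The count of genes lower at an unadjusted p under 0.05 was 2, and it was 0 with TPM, 1 with quantile normalization and 0 to 3 with a library left out (0 without sham 1 or sham 3, 1 without sham 2 or VO 1). The count of higher ones was 1, and it was 2 with quantile normalization, 0 without the trend and 0 to 1 with a library left out (0 without sham 2, sham 3, VO 2 or VO 3). The count of genes higher without overlap was 0, and it was 1 with TPM, 1 with quantile normalization and 0 to 1 with a library left out (1 without sham 1 or VO 1). A mean FPKM of at least 5 removed Fkbp5 from the test. Of all genes with an unadjusted p under 0.05, 32.5% were higher in VO (491 against 1020 lower), but 69.1% with TPM (1085 against 486), where the median of all genes was 0.13. Mt1 was at 0.58 and the median of the 9 genes at -0.19 on that scale. The split was also 21.8% with a mean FPKM of at least 5, 40.8% with no filter, 42.2% with voom and 40.4% with median of ratios over the tested genes. No pairing by replicate number was seen, with correlations of -0.108, 0.0112 and -0.0292 between same-numbered sham and VO libraries after removing group means. These values cannot settle whether same-numbered libraries shared a litter or a day, because each mean rests on 3 libraries. The replicate block gave 1 lower and 0 higher genes of the 9, and 932 in place of 1511 genes at an unadjusted p under 0.05. The 4 to 10 counted fragments limit Mt2, and 3 libraries a group limit the rest. The causes of these shifts were not tested.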
